A study of Mus musculus with 6 samples.

Results

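The genes described here are the mouse counterparts of the human 22q11.2 deletion interval, Tbx1 itself left out and were read here in E10.5 mouse mandibular arches. They were selected by name from a list of 35 genes, and 33 of them had a probe set that the platform annotation assigns to that gene alone, out of 18194 genes with such a probe set. The rule uses gene names and no expression value, although the list was drawn up when earlier results of these data were known. Cltcl1 had no probe set under its symbol, and the probe set annotated to Septin5 also names Gp1bb and was not used.

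Expression was measured on 6 Affymetrix Mouse Genome 430 2.0 arrays, 3 labelled Tbx1+/+ and 3 labelled Tbx1-/-, all from C57BL/6 embryos and with no other allele or treatment named. The kind of Tbx1 allele and the part of the gene it removes are not given in the sources used here. The tissue of 3 embryos was combined for each genotype. Since the sources do not say that the arrays came from separate pools, a p-value here covers the spread among arrays alone, which may be technical. The comparison asks whether the neighbours of the targeted gene differ between the genotypes, and at what level each is read in the arch.

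In humans the deletion removes one copy of this run of genes and causes DiGeorge or velocardiofacial syndrome, with defects of the heart outflow, thymus, palate and face. Tbx1, a T-box transcription factor of the pharyngeal arches, accounts for many of these features in mouse models, and Crkl, Dgcr8, Hira and others in the interval have been studied as further contributors. In the mouse these genes lie together on chromosome 16 in a partly rearranged order, with Tbx1 near one end of the run. Of the measured members 27 lay on one side of Tbx1 and 6 on the other, in the gene order of the RefSeq table.

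The tissue label and the arrays were checked with marker genes. All 10 markers of arch mesenchyme read above 4 on the log2 scale in the Tbx1+/+ mean, with Prrx1 at 13.05 and Twist1 at 12.36. Tbx1-/- replicate 3 stood apart: 249 genes read more than 1 (log2) above the mean of the other arrays, compared with 6 to 32 for any other array. The summed signal of 8 trophoblast and placenta markers was 14.74 (log2) there, against 7.81 to 8.20 elsewhere. Its summed macrophage (7 genes, 12.01 against 9.24 to 9.94) and epithelium (6 genes, 14.49 against 13.15 to 13.50) markers were also the highest. The macrophage sum rested on Csf1r (11.77, against 6.30 to 7.94 elsewhere). Cd68 and Tyrobp were highest there by far less, and the other macrophage markers were not. The epithelium sum rested on Krt8 (12.69, against 10.35 to 10.85) and Krt18 (13.50, against 11.65 to 12.10). Krt5 was lowest there at 6.56, and the other epithelium markers were not raised. Summed markers of primitive blood (6 measured) read 15.24 to 15.28 in Tbx1+/+ and 15.00 to 15.28 in Tbx1-/-, and of neurons (7) 8.97 to 9.08 and 9.09 to 9.29. The 5 skeletal muscle markers summed to 8.98 to 9.08 and 7.45 to 7.81, and 2 of them passed lower in limma. What these contents contribute to the members' values was not tested. None of the 33 interval genes read more than 1 from the mean of the other arrays on Tbx1-/- replicate 3 or on any other, and the largest such distance on replicate 3 was 0.40, for Gp1bb. A limit of 1 is coarse beside the members' differences between genotypes. Without that array the difference (log2, Tbx1-/- minus Tbx1+/+) of Txnrd2 went from -0.10 to -0.29, of Car15 from -0.17 to -0.37 and of Ufd1 from -0.12 to -0.05. Tbx1 itself read 6.93, 7.31 and 6.92 on the Tbx1+/+ arrays and 7.59, 7.50 and 7.30 on the Tbx1-/- arrays, a difference of 0.41 (log2, SE 0.14; adjusted p = 1.00 in limma). This probe set is therefore no check of the genotype, since the deleted part is unknown.

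No gene of the interval changed in limma on the arrays labelled Tbx1-/-. Of the 33 genes tested, 0 passed an adjusted p of 0.05 over all 16074 genes, where 0.0373% of all genes did (0.0124% higher, 0.0249% lower). The count of all genes that passed, 6, was 22 without Tbx1-/- replicate 3, 1 without Tbx1+/+ replicate 1 or 2, 0 without Tbx1+/+ replicate 3 and 7 without Tbx1-/- replicate 1 or 2, while that of the members stayed 0. Of the members, 0 also had an unadjusted p under 0.05, where 2.68% of all genes did (1.47% higher, 1.20% lower). The differences ran from -0.21 for Scarf2 to 0.10 for Aifm3 (log2, Tbx1-/- minus Tbx1+/+), which is 0.862-fold to 1.07-fold. Their median was -0.04, beside -0.01 over all genes. In 21 members (63.6%) the mean was lower on the Tbx1-/- arrays and in 12 it was higher, against 52.7% lower over all genes. That balance moved in both directions with single arrays. Without Tbx1-/- replicate 1 the median was 0.03 with 13 members lower, and without Tbx1+/+ replicate 2 it was 0.01 with 15 lower. Without Tbx1-/- replicate 3 it was -0.07 with 26 of 33 lower, and without Tbx1+/+ replicate 1 it was -0.08 with 22 lower. It stayed at -0.04 without Tbx1+/+ replicate 3 (22 lower) or Tbx1-/- replicate 2 (20 lower).

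The intervals of the differences were close in width to those of all genes. They cover the spread among arrays alone, which may be technical, and do not bound a difference between embryos. For all 33 members the 95% interval of the difference lay within a 2-fold change in either direction, as it did for 97.5% of all genes. It lay within a 1.5-fold change for 32 members, against 88.7% of all genes, and Car15 was the exception. For Gsc2 and Tssk2, read near the filter level, the interval bounds the difference in signal and not one in transcript, since the method that made the values shrinks differences near background. The same limit may apply to Rtn4r, Serpind1 and Aifm3, with Tbx1+/+ means of 5.44, 5.38 and 5.45. The placental gene Prl4a1 read 5.26 to 6.04 on all arrays but Tbx1-/- replicate 3. The median half-width of the 95% intervals was 0.26 (log2) for the members and 0.28 for all genes. Arrays of 1 genotype differed by a median SD of 0.14 for the members, the same as over all genes. Mrpl40 varied least, with a range of 0.09 over the 6 arrays, and Car15 most, with a range of 0.86.

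**Figure D1:**
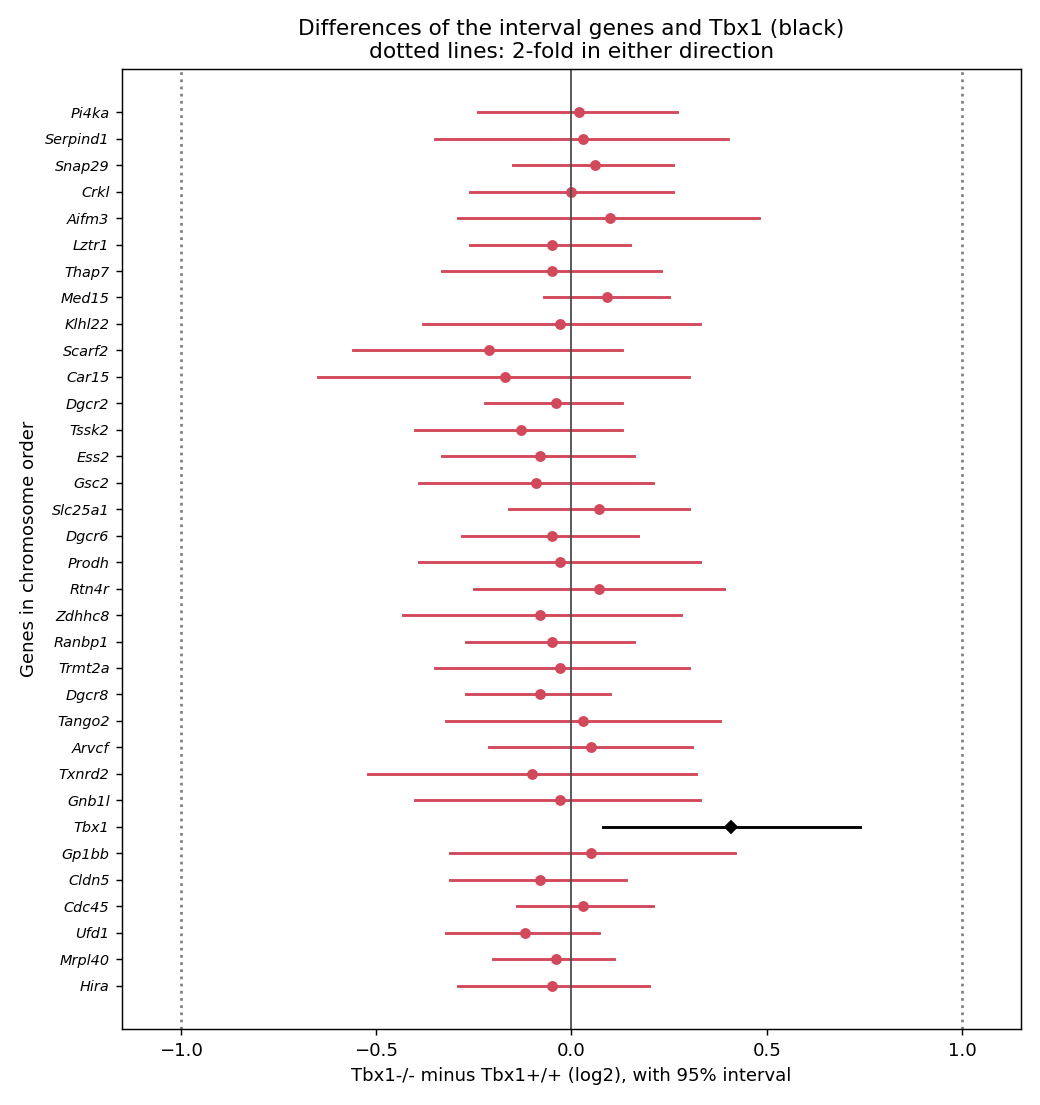
Difference of each interval gene between Tbx1-/- and Tbx1+/+ arrays (x axis, log2) with its 95% interval from limma, n = 3 arrays per genotype, in chromosome order (y axis), Tbx1 in black. All 33 intervals cross 0 and stay inside the dotted lines at a 2-fold change, whereas that of Tbx1 runs from 0.08 to 0.74.

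The levels of the members in the arch spanned most of the scale. In the Tbx1+/+ mean 20 genes read above 8 (log2), 8 read between 6 and 8, and 5 read at 6 or below. Levels of different probe sets depend on their probes as well as on the transcript, so they are given for each gene and not ranked against each other. On all 6 arrays 32 members read above 4, the level used as a filter on dim probe sets. Gsc2, a goosecoid-related homeobox gene, was the exception, with 4.12, 3.94 and 4.23 on the Tbx1+/+ arrays and 3.85, 4.14 and 4.05 on the Tbx1-/- arrays. These values sit at the filter, where a change in transcript could not be followed. As the arch was measured in bulk, fewer cells of a type and less transcript per cell cannot be told apart.

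**Figure D2:**
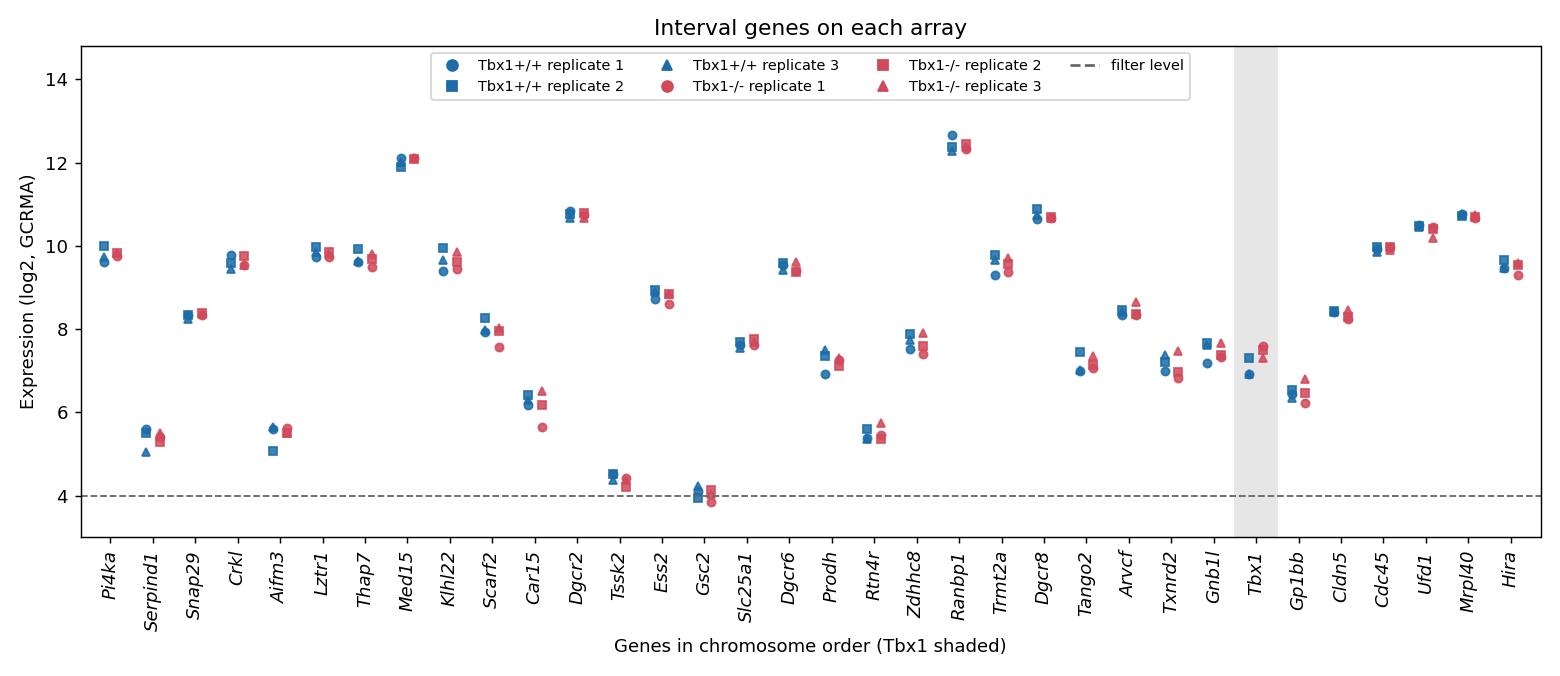
Expression of each interval gene and Tbx1 (y axis, log2) on each of 6 arrays, in chromosome order (x axis); blue marks Tbx1+/+, red Tbx1-/-, the marker shape the replicate number, and the dashed line the filter level of 4. The colours overlap for every member but Ufd1, whose nearest blue and red points meet at 10.46 in the rounded values plotted. The points of Gsc2 lie on both sides of the filter level.

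The genes next to Tbx1 did not differ beyond the spread of the arrays. Gnb1l, a WD-repeat protein related to G protein beta subunits and the nearest gene on one side, read 7.18, 7.67 and 7.61 on the Tbx1+/+ arrays and 7.32, 7.38 and 7.66 on the Tbx1-/- arrays. The groups overlapped fully and the difference was -0.03 (SE 0.16, 95% interval -0.40 to 0.33). Gp1bb, a subunit of the platelet receptor for von Willebrand factor and the nearest gene on the other side, read 6.45, 6.55 and 6.35 in Tbx1+/+ and 6.23, 6.47 and 6.81 in Tbx1-/-. Tbx1-/- replicate 3 was highest and replicate 1 lowest, and the difference was 0.05 (SE 0.16), or -0.11 without replicate 3 and 0.19 without replicate 1. On Tbx1-/- replicate 3 the platelet marker Ppbp also read high, at 7.48 against 5.75 to 6.72 on the others. The other measured platelet markers, Pf4, Itga2b, Gp9 and Gp5, were not highest there. The summed platelet markers (5 measured) ranged from 8.91 to 9.47 in Tbx1+/+ and from 9.19 to 9.45 in Tbx1-/-. Their part in the Gp1bb value was not tested. The other probe set of Gp1bb differed by -0.12.

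The starts of the genes on either side of Tbx1 are shown because these genes flank the targeted one. Each window holds 250 bases before a transcript start and 50 from it on, and was taken from RefSeq, build GRCm38.p6. Capitals mark a T-box motif, GGTGTGA, searched on both strands (TCACACC on the reverse); it was present in 3.98% of 32851 such windows and in 2 of the 41 windows of the members (4.88%), those of Gnb1l and of a downstream start of Arvcf. The match in Gnb1l begins 22 bases after the start, and Gp1bb holds none. A match is a description of the letters and not a binding site.
Gnb1l, GRCm38.p6, chr16:18498463-18498762, plus strand: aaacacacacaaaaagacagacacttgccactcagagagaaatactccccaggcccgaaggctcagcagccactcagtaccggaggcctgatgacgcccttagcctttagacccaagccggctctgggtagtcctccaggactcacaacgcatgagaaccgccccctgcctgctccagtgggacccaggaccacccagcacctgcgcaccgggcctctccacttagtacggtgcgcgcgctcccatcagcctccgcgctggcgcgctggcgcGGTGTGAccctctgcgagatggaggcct
Gp1bb, GRCm38.p6, chr16:18622354-18622653, minus strand: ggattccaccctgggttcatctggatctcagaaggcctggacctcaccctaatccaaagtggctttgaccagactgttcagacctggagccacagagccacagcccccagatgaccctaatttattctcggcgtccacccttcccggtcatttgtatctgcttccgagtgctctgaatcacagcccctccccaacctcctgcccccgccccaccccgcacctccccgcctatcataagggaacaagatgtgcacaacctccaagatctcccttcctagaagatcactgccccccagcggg

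Further out on the Gnb1l side, Txnrd2, the mitochondrial thioredoxin reductase, read 7.0, 7.20 and 7.37 in Tbx1+/+ and 6.83, 6.97 and 7.47 in Tbx1-/-. Its difference of -0.10 (SE 0.18) was among the 5 largest of the members, but the Tbx1-/- arrays held both the lowest and the highest value. It was -0.29 without Tbx1-/- replicate 3 and 0.03 without Tbx1-/- replicate 1, and the other 3 probe sets differed by 0.02, 0.00 and 0.07, at levels of 5.45 to 5.90 in Tbx1+/+. Arvcf, a catenin of the p120 family that binds cadherins, read 8.33, 8.47 and 8.40 against 8.34, 8.37 and 8.64, a difference of 0.05 (SE 0.11). Tango2, named from a screen for transport and Golgi organization, read 6.99, 7.46 and 7.03 against 7.06, 7.15 and 7.36, a difference of 0.03 (SE 0.15). For both genes the 2 groups overlapped, with Tbx1+/+ replicate 2 the highest reading of Tango2 and Tbx1-/- replicate 3 that of Arvcf.

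On the Gp1bb side, Cldn5, a claudin of endothelial tight junctions, read 8.41, 8.44 and 8.42 in Tbx1+/+ and 8.25, 8.30 and 8.47 in Tbx1-/-. The Tbx1+/+ arrays agreed closely and Tbx1-/- fell on both sides of them, a difference of -0.08 (SE 0.10). Of 8 endothelial markers 6 had higher means in Tbx1-/- and 0 passed in limma, and their summed signal ranged from 11.13 to 11.29 in Tbx1+/+ and from 11.31 to 11.57 in Tbx1-/-, while the Cldn5 mean was lower in Tbx1-/-. The part of endothelial content in the Cldn5 value was not tested.

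Ufd1 was the only member whose groups did not overlap. Ufd1, a cofactor of the Vcp ATPase that draws ubiquitinated proteins out of membranes, read 10.49, 10.48 and 10.46 in Tbx1+/+ and 10.46, 10.40 and 10.20 in Tbx1-/-. The highest Tbx1-/- array lay under the lowest Tbx1+/+ array by less than the printed decimals show. The difference was -0.12 (SE 0.09, 95% interval -0.32 to 0.07), with an adjusted p of 1.00 in limma and an exact two-sided permutation p of 0.10, the smallest that 3 against 3 arrays can give. It was -0.05 without Tbx1-/- replicate 3, the lowest array, and -0.18 without Tbx1-/- replicate 1. With centred arrays, or with probe sets averaged, the groups of Ufd1 overlapped. The other probe set of Ufd1 differed by the same -0.12, with overlapping groups. A count of 1 of 33 lower without overlap (3.03%) is close to the 3.25% of all genes, and 0 members were higher without overlap, against 3.17% (6.43% in either direction). Of 7 genes that encode Vcp and its cofactors, 5 had higher and 2 lower means, 0 passed in limma at either level, and the differences ran from -0.01 to 0.05, with the Ufd1 partner Nploc4 at 0.04 (SE 0.06).

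Cdc45, a subunit of the active replicative helicase together with the Mcm and Gins proteins, read 9.93, 9.97 and 9.86 in Tbx1+/+ and 9.97, 9.98 and 9.91 in Tbx1-/-, a difference of 0.03 (SE 0.08). The groups overlapped within a range of 0.12. The Mcm and Gins genes listed as its partners, Mcm10 among them, all had lower means in Tbx1-/-, 11 of 11 (median -0.06, from -0.12 to -0.01). Over all genes 52.7% did. These genes were read on the same arrays, so they are not independent counts, and no test of the list was made. Groups did not overlap for 2 of the 11, Gins1 and Gins3, both lower, against 3.25% of all genes, and 0 passed in limma, also at an unadjusted p of 0.05. Gins1 differed by -0.11 (SE 0.07) and Mcm5 by -0.12 (SE 0.10).

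Hira, a histone chaperone that places the histone variant H3.3, read 9.46, 9.65 and 9.46 in Tbx1+/+ and 9.31, 9.55 and 9.58 in Tbx1-/-. Its difference was -0.05 (SE 0.11) and its other 3 probe sets differed by -0.02, -0.07 and -0.14, in each case with overlapping groups. Among 6 genes of the Hira complex and its cargo 0 passed in limma at either level, and Asf1a, which hands histones to Hira, was nearest with -0.11 (SE 0.06). Groups did not overlap for 1 of the 6, which was lower, against 3.25% of all genes.

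Dgcr8, the RNA-binding subunit of the Microprocessor that cuts primary microRNAs, read 10.65, 10.89 and 10.74 in Tbx1+/+ and 10.66, 10.70 and 10.66 in Tbx1-/-. The Tbx1-/- arrays fell within the lower part of the Tbx1+/+ range, a difference of -0.08 (SE 0.08). Its second brightest probe set differed by -0.09 and the remaining sets by 0.02 and -0.12. Of 11 genes of microRNA processing and loading, Drosha, Dicer1 and the Argonautes among them, 3 had higher and 8 lower means and 0 passed in limma at either level, with Ago4 at -0.10 (SE 0.11) and Prkra at -0.07 (SE 0.08).

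Med15, a Mediator subunit that links activators to RNA polymerase II, read 12.12, 11.90 and 12.01 in Tbx1+/+ and 12.11, 12.08 and 12.10 in Tbx1-/-. The Tbx1-/- arrays were nearly equal and lay inside the Tbx1+/+ range, with a difference of 0.09 (SE 0.07). Of 29 other Mediator genes 12 had higher and 17 lower means (median -0.01) and 0 passed in limma at either level. Groups did not overlap for 1 of the 29, which was higher, against 3.17% of all genes. Med18 differed by -0.21 (SE 0.16) and Med28 by -0.12 (SE 0.08). Ess2, a spliceosome-associated protein, averaged 8.85 ± 0.11 (SD, n = 3) in Tbx1+/+ and 8.77 ± 0.14 (SD, n = 3) in Tbx1-/-. Thap7, a zinc-finger repressor, averaged 9.72 ± 0.18 and 9.67 ± 0.16 (SD, n = 3 each).

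The signalling genes of the interval were likewise close between genotypes. Crkl, an adaptor that couples receptor tyrosine kinases such as the FGF receptors to Ras and Rap, read 9.79, 9.58 and 9.44 in Tbx1+/+ and 9.54, 9.75 and 9.53 in Tbx1-/-. The groups overlapped fully and the difference was 0.00 (SE 0.11, 95% interval -0.26 to 0.26). A dimmer Crkl probe set was far more variable, at 8.16, 7.12 and 7.15 in Tbx1+/+ and 7.70, 7.41 and 7.19 in Tbx1-/-, with replicate 1 high in both genotypes and a difference of -0.04. Of 8 Crk signalling genes 4 had higher and 4 lower means and 0 passed in limma at either level, and Bcar1, a docking protein, differed by -0.07 (SE 0.15).

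Lztr1 and Klhl22 are adaptors of the Cul3 ubiquitin ligase, and Lztr1 directs it to Ras proteins. Lztr1 read 9.73, 9.97 and 9.84 in Tbx1+/+ and 9.74, 9.84 and 9.81 in Tbx1-/-, a difference of -0.05 (SE 0.09). Klhl22 read 9.40, 9.94 and 9.66 against 9.45, 9.61 and 9.85, a difference of -0.03 (SE 0.15), with replicate 1 lowest in both genotypes. A second Klhl22 probe set read 5.40, 5.40 and 5.50 against 5.30, 5.22 and 5.24 without overlap, a difference of -0.18 that the bright set did not show. Of the 5 measured genes of Cul3 and Ras, 1 had a higher and 4 a lower mean and 0 passed in limma at either level, with Rit1 at 0.15 (SE 0.12). Pi4ka, the kinase that makes phosphatidylinositol 4-phosphate at the plasma membrane, averaged 9.78 ± 0.20 and 9.80 ± 0.04, and Rtn4r, the Nogo receptor of axons, 5.44 ± 0.13 and 5.51 ± 0.21 (SD, n = 3 each, Tbx1+/+ first). Dgcr2, a membrane receptor-like protein, averaged 10.77 ± 0.08 and 10.72 ± 0.06 on the same terms.

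Scarf2, a scavenger receptor-like membrane protein, had the largest difference of all members. It read 7.93, 8.27 and 7.99 in Tbx1+/+ and 7.57, 7.96 and 8.03 in Tbx1-/-. Only Tbx1-/- replicate 1 lay below the Tbx1+/+ arrays, and the difference of -0.21 (SE 0.15, 95% interval -0.56 to 0.13; adjusted p = 1.00 in limma) became -0.07 without it. It was -0.30 without Tbx1-/- replicate 3 and -0.28 without Tbx1+/+ replicate 1. Its other probe sets differed by -0.13 and -0.25, also with overlapping groups. Car15, a membrane-bound carbonic anhydrase, was also lowest on Tbx1-/- replicate 1. It read 6.18, 6.42 and 6.29 in Tbx1+/+ and 5.66, 6.19 and 6.52 in Tbx1-/-, a difference of -0.17 (SE 0.21) that was 0.06 without Tbx1-/- replicate 1 and -0.37 without replicate 3. Tssk2, a kinase of the testis, read 4.51, 4.51 and 4.38 against 4.43, 4.20 and 4.37, near the filter level, a difference of -0.13 (SE 0.12).

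Genes of transport and trafficking also overlapped between the genotypes. Ranbp1, which helps hydrolyse GTP on Ran at the exit from the nucleus, read 12.65, 12.38 and 12.28 in Tbx1+/+ and 12.32, 12.45 and 12.37 in Tbx1-/-. Tbx1+/+ replicate 1 was the highest, the groups overlapped, and the difference was -0.05 (SE 0.09). Of the 6 measured genes of the Ran cycle 2 had higher and 4 lower means and 0 passed in limma at either level, with Rangap1 at -0.09 (SE 0.07). Snap29, a SNARE of autophagosome and membrane fusion, read 8.33, 8.35 and 8.24 against 8.34, 8.38 and 8.37, a difference of 0.06 (SE 0.09), and its other probe sets differed by 0.06 and 0.02. Of 7 further SNARE genes 0 passed in limma at either level, and Snap23 differed by -0.13 (SE 0.16). Zdhhc8, a protein palmitoyltransferase, averaged 7.72 ± 0.19 and 7.64 ± 0.25 (SD, n = 3 each).

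Mitochondrial and metabolic members overlapped between the genotypes as well. Mrpl40, a protein of the mitochondrial ribosome, read 10.77, 10.71 and 10.76 in Tbx1+/+ and 10.68, 10.69 and 10.74 in Tbx1-/-. The groups overlapped by 1 array and the difference of -0.04 (SE 0.07, 95% interval -0.20 to 0.11) was the most tightly bounded of the members. Prodh, the mitochondrial proline dehydrogenase, read 6.93, 7.36 and 7.49 against 7.26, 7.11 and 7.31, a difference of -0.03 (SE 0.16), with the lowest and the highest value both in Tbx1+/+. Of the 4 measured genes of proline metabolism 3 had higher and 1 a lower mean and 0 passed in limma at either level. Groups did not overlap for 1 of the 4, which was higher, against 3.17% of all genes. The proline transporter Slc6a7 differed by 0.17 (SE 0.11). Slc25a1, the mitochondrial citrate carrier, averaged 7.62 ± 0.07 and 7.69 ± 0.07, and Aifm3, a relative of apoptosis-inducing factor, 5.45 ± 0.33 and 5.54 ± 0.07 (SD, n = 3 each). The Aifm3 difference of 0.10 was -0.09 without Tbx1+/+ replicate 2. Its other probe set differed by -0.20, with overlapping groups.

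The remaining members are Serpind1 and Dgcr6. Serpind1, the plasma thrombin inhibitor heparin cofactor II made by the liver, averaged 5.38 ± 0.30 in Tbx1+/+ and 5.41 ± 0.10 in Tbx1-/- (SD, n = 3 each). Of 6 yolk sac and liver markers 5 had lower means in Tbx1-/- and 0 passed in limma, and their summed signal ranged from 9.10 to 10.34 in Tbx1+/+ and from 8.39 to 9.01 in Tbx1-/-, whereas Serpind1 differed by 0.03 (SE 0.16). Dgcr6 averaged 9.51 ± 0.09 and 9.46 ± 0.12 (SD, n = 3 each), and its other probe sets differed by -0.07 and 0.07.

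**Figure D3:**
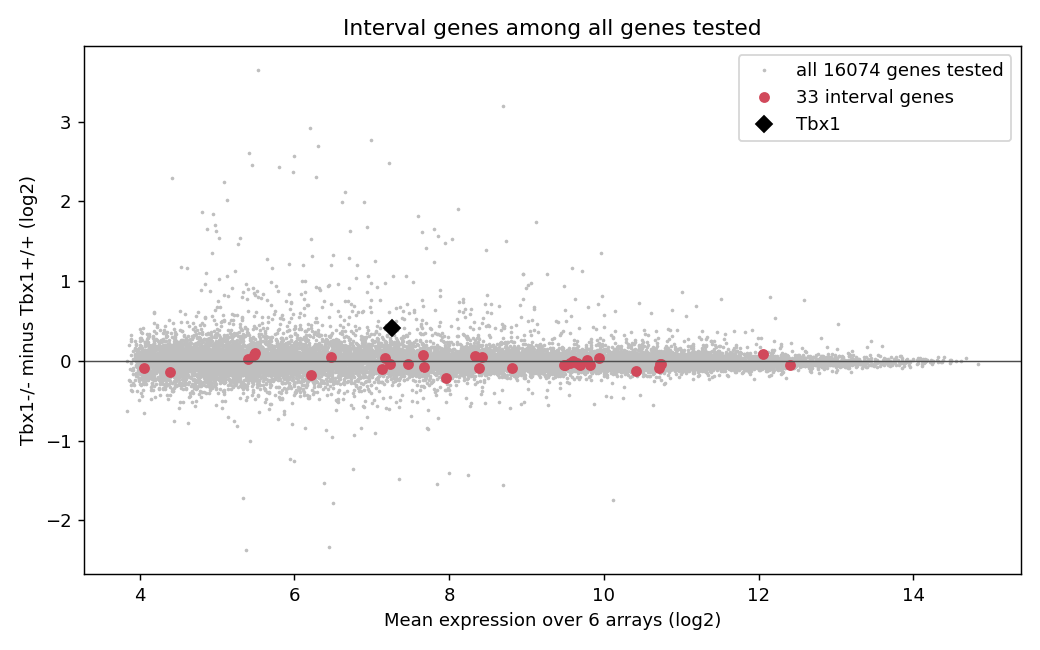
Difference between Tbx1-/- and Tbx1+/+ (y axis, log2) against mean expression over 6 arrays (x axis, log2) for all 16074 genes tested (grey), the 33 interval genes (red) and Tbx1 (black). The interval genes lie between -0.21 and 0.10 at all levels, and 1 point outside them, the placental gene Prl7a1 at 3.65, rests on Tbx1-/- replicate 3 alone (13.28, against 3.53 to 4.76 on the other arrays).

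Several neighbours in the interval are transcribed in opposite directions from starts that face each other. With a limit of 1000 bases between starts there were 5 such pairs: Tango2 and Arvcf (84 bases apart), Mrpl40 and Hira (113), Pi4ka and Snap29 (135), Ranbp1 and Trmt2a (189) and Cdc45 and Ufd1 (322). Trmt2a, a methyltransferase of transfer RNA, read 9.30, 9.78 and 9.65 in Tbx1+/+ and 9.37, 9.56 and 9.71 in Tbx1-/-, a difference of -0.03 (SE 0.14). In each pair the genes were read by separate probe sets, and the differences of the pair stood at 0.03 and 0.05, -0.04 and -0.05, 0.02 and 0.06, -0.05 and -0.03, and 0.03 and -0.12, in the order above. By array the genes of a pair did not always move alike: Tbx1+/+ replicate 1 was the highest of the 6 for Ranbp1 and the lowest for Trmt2a.

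**Figure D4:**
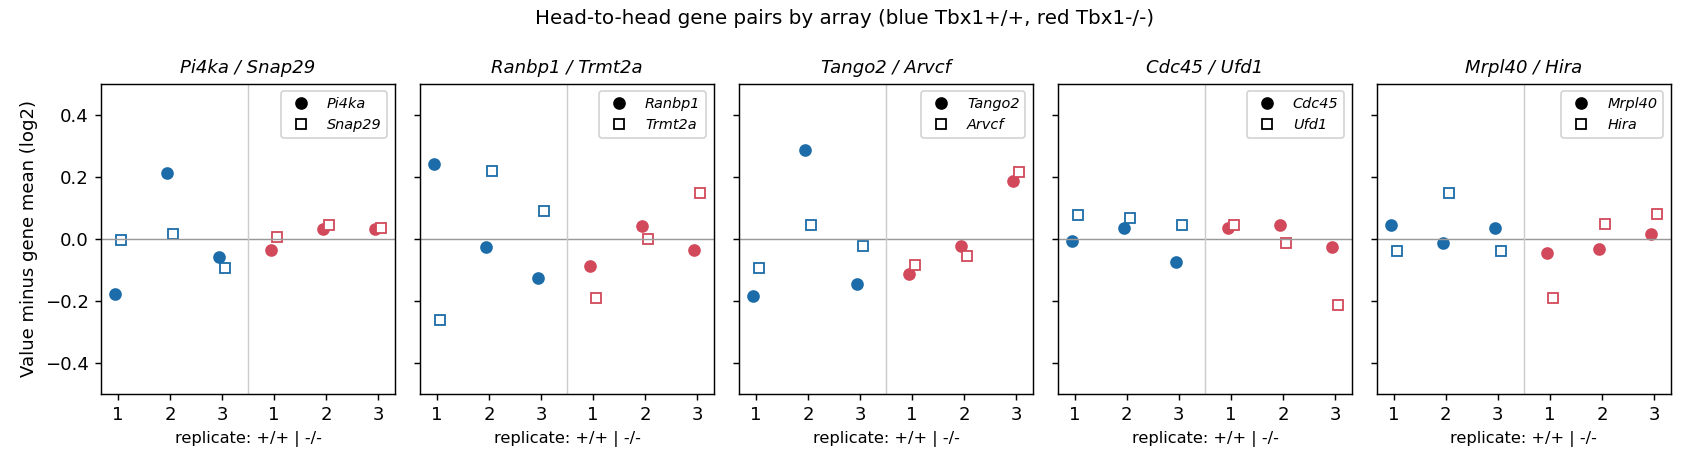
Value of each gene on each array minus the mean of that gene over 6 arrays (y axis, log2) for the 5 pairs of facing genes; filled circles mark the gene on the minus strand, open squares the gene on the plus strand, blue Tbx1+/+ and red Tbx1-/-. For Ranbp1 and Trmt2a the values of Tbx1+/+ replicate 1 lie on opposite sides of 0, and for Tango2 and Arvcf both values of Tbx1-/- replicate 3 lie above 0.

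The windows of 4 pairs are shown because each holds the starts of both genes, so that 1 stretch of DNA was read out by separate probe sets. The gene on the plus strand starts at base 251 of its window. In the Hira window the start of Mrpl40 faces it at base 138, in the Snap29 window that of Pi4ka at base 116, in the Trmt2a window that of Ranbp1 at base 62, and in the Arvcf window that of Tango2 at base 167. Capitals mark matches, on either strand, to an ETS core (CCGGAAG), an NRF1 core (GCGCATGC), a CCAAT box (CCAAT), an E2F core (TTTGGCGC) or the T-box motif above, and the Snap29 window holds none of them.
Hira and Mrpl40, GRCm38.p6, chr16:18876500-18876799, plus strand: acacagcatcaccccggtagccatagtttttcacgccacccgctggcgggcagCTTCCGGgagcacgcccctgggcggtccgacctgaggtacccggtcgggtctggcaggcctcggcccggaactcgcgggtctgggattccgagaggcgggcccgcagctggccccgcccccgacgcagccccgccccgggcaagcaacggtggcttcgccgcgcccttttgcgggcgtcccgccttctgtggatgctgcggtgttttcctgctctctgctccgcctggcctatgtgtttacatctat
Snap29 and Pi4ka, GRCm38.p6, chr16:17405750-17406049, plus strand: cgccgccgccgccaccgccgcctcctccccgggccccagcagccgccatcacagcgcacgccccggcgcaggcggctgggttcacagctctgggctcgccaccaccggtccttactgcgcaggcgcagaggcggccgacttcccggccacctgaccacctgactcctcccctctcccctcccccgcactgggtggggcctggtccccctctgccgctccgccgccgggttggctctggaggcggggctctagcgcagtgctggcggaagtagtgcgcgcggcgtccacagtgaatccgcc
Trmt2a and Ranbp1, GRCm38.p6, chr16:18248633-18248932, plus strand: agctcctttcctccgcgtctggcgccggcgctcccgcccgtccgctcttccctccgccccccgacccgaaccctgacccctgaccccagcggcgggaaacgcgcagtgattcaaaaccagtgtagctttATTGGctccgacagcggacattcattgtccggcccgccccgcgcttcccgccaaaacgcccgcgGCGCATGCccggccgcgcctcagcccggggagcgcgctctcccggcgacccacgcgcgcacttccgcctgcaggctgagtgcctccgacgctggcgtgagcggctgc
Arvcf and Tango2, GRCm38.p6, chr16:18347932-18348231, plus strand: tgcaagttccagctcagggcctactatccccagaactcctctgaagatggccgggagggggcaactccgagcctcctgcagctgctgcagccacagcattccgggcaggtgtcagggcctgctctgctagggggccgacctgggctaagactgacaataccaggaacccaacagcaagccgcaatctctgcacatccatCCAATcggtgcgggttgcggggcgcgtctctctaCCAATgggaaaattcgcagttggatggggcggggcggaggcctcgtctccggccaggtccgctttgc

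Over all 41 windows of the 33 members, the ETS core was found in 11 (26.8%; 8.86% of all windows), the NRF1 core in 5 (12.2%; 2.71%), the CCAAT box in 18 (43.9%; 37.4%) and the E2F core in 0 (0.514%). Windows of facing genes overlap and some genes have several starts, so these are not independent counts and no test was made. Genes with an ETS core were Hira, Klhl22, Med15, Prodh, Scarf2, Tango2, Thap7 and Ufd1.

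Genes that surround the members were compared in the same fit. Of 7 measured genes that lie inside the run without being members, 0 passed in limma over all genes, and 2 were lower at an unadjusted p under 0.05, against 1.20% of all genes: Tssk1, the testis kinase next to Tssk2, averaged 4.78 ± 0.06 and 4.43 ± 0.16 (SD, n = 3 each), and Slc7a4, a transporter-like protein, 5.21 ± 0.13 and 4.86 ± 0.21. Both read close to the filter level. Groups did not overlap for these 2, against 3.25% of all genes lower, and for 1 gene that was higher, 2510002D24Rik, against 3.17%, which is named after its values were seen; the 7 differences ran from -0.35 to 0.19. Of the 10 nearest measured genes outside the run on the Pi4ka side 9 were tested and 0 passed at either level, with a median of -0.01. On the Hira side 10 were tested, 0 passed over all genes and 1 was higher at an unadjusted p under 0.05, against 1.47% of all genes: Klhl24, a Kelch-like protein, at 11.61 ± 0.05 and 11.79 ± 0.10.

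By position, the 9 members among the 5 nearest measured genes on each side had a median difference of -0.03 (from -0.12 to 0.05) and the 24 others -0.04 (from -0.21 to 0.10), a comparison that was not tested. The 27 members on the Gnb1l side had a median of -0.03 and the 6 on the Gp1bb side of -0.04, beside -0.01 over all genes. Whether the difference of Tbx1 (0.41) and that of its neighbours are unequal was not tested.

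The members had 76 probe sets, with more than 1 for 22 members, and over all of these the difference ran from -0.28 for a dim Tango2 set to 0.20 for a dim Crkl set. Of the 43 other sets 29 had the sign of the brightest set, and 26 were lower and 17 higher in Tbx1-/-. Groups did not overlap for 2 of the 76 sets, both lower, those of Ufd1 and Klhl22 described above, where 3.43% of all such probe sets were lower without overlap.

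Members were also compared array by array. They were lowest on Tbx1-/- replicate 1 in 11 of 33 cases and highest there in 0, where this array was lowest for 19.8% and highest for 17.7% of all genes. They were highest on Tbx1+/+ replicate 2 in 11 cases, against 25.3% of all genes, and next on Tbx1+/+ replicate 1 and Tbx1-/- replicate 3 in 8 each. The median deviation of the members from their own means was -0.08 on Tbx1-/- replicate 1, 0.11 on Tbx1+/+ replicate 2 and 0.07 on Tbx1-/- replicate 3, and between -0.03 and -0.01 on the other arrays. Taken by replicate number, 4 members were lower in all 3 pairs (12.1%, against 12.6% of all genes) and 3 higher (9.09%, against 9.92%).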

How the data were processed

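RNA of mandibular arches was measured on 6 Affymetrix arrays, 3 per genotype. The authors deposited 1 log2 value for each probe set and array, made with GCRMA per the submitters' processing notes (version not given in the sources used here); GCRMA corrects background by probe sequence and normalizes between arrays, so a shift shared by most genes is removed and differences near background shrink. The log2 scale was read from the values, 1.95 to 15.11, with array medians of 6.08 to 6.15. Depth has no counterpart here: the number of arrays limits the precision.

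From the 45101 probe sets, each of 18194 genes was represented by its brightest set among those annotated to it alone, and 16074 genes above 4 on at least 3 arrays were tested with limma 3.58.1 in R 4.3.3 (lmFit, eBayes with an intensity trend, genotype only, Benjamini-Hochberg, threshold 0.05). Gene IDs of 33 members matched the RefSeq table. The step was tested on simulated data in which the changed genes differed by more than any member did here. Recovery of changes as small as the members' differences was not tested. Members, marker and partner lists were chosen with earlier results of these data known. All members are named; values on every array are given for the nearest neighbours of Tbx1, the 5 largest differences, members without overlap, those with a partner list, and a pair gene and Gsc2 added after seeing the values; from other lists up to 2 genes with the smallest p.

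Arrays of both genotypes carry the numbers 1 to 3. Correlations of array deviations about each genotype's mean were 0.261, 0.130 and 0.135 for the same number and from -0.195 to 0.065 otherwise. These correlations were the only ground for a pairing by number. The main fit did not use it, so the SEs, intervals and p-values in the Results are unpaired. A block for the replicate number was run as an alternative. No 2 arrays held the same values, the SD of their difference being at least 0.235. Alternatives covered the replicate block, each array left out, the filter, a floor at 4, the mean of probe sets, centring, quantile normalization, the intensity trend and array weights.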

Additional observations from a re-analysis of the deposited data

How the results depend on the processing

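In limma 0 members passed over all genes, and 0 at an unadjusted p under 0.05, in either direction under each of the 14 alternatives run; this includes the replicate block, under which 0 of 33 passed, the median stayed at -0.04 and the smallest unadjusted p was 0.11, for Scarf2. The smallest adjusted p of a member over these settings was 0.999, and all 33 intervals stayed within a 2-fold change in each. The pairing by replicate number changed no call among the members, while over all genes it raised the count that passed from 6 to 10 and the share at an unadjusted p under 0.05 from 2.68% to 4.24%. The median difference of the members lay between -0.08 and 0.03 with 1 array left out, and was -0.03 or -0.04 under the other settings. Members without overlap numbered 1 higher (Pi4ka) and 0 lower with probe sets averaged per gene, 1 higher (Snap29) and 0 lower with centring, so that Ufd1 overlapped in both, and 1 higher (Snap29) after a further quantile normalization. With 1 array left out they ranged from 0 to 4 higher, where 6.61% to 7.80% of all genes did so, and from 1 to 5 lower, where 5.90% to 10% did. There were 4 higher and 2 lower without Tbx1+/+ replicate 2 (7.80% and 5.90% of all genes). There were 1 higher and 4 lower without Tbx1+/+ replicate 1 (7.01% and 10%), and 1 higher and 5 lower without Tbx1-/- replicate 3 (6.68% and 7.30%). Groups that are apart on all 6 arrays stay apart when 1 is left out, so Ufd1 was bound to remain among the lower members. The cause of the changed counts was not tested, apart from the fewer arrays when 1 was left out. Differences of 3 to 10 members changed sign with 1 array left out, 4 with the mean of probe sets and 2 with array weights, and no member that changed sign had passed. Values near 4, as for Gsc2 and Tssk2, limit what the arrays can show, and the same may hold at the levels of Rtn4r, Serpind1 and Aifm3.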
